A study of Arabidopsis thaliana with 8 samples.

Results

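The auxin synthesis genes described here are 10 Arabidopsis thaliana genes of the main plant route to auxin, chosen by their locus identifiers among the 37329 genes of the expression tables. They are the tryptophan aminotransferase genes TAA1 (AT1G70560), TAR1 (AT1G23320) and TAR2 (AT4G24670), and the flavin monooxygenase genes YUC1 (AT4G32540), YUC2 (AT4G13260), YUC4 (AT5G11320), YUC6 (AT5G25620), YUC8 (AT4G28720), YUC10 (AT1G48910) and YUC11 (AT1G21430). The choice used the identifiers and was made with earlier results of these data known. All 10 were present in each table.

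Endosperm, the nutritive tissue of the seed, was hand-dissected 7 days after pollination from F1 seeds of crosses with a Ler mother and a Col-0 father, and its polyadenylated RNA was sequenced. The 8 labelled libraries comprised 2 of WT, 3 of mat nrpd1+/- and 3 of nrpd1-/-. In WT both parents carried functional NRPD1, the gene of the catalytic subunit of RNA polymerase IV, a plant enzyme that makes the precursors of small RNAs. In mat nrpd1+/- the Ler mother was homozygous for nrpd1 and the Col-0 father was WT, and in nrpd1-/- both parents were homozygous mutant. The same T-DNA allele, nrpd1a-4, was used throughout; it arose in Col-0 and was moved into Ler by repeated backcrossing. The labels describe the dissected seeds as coming from crosses of several plants.

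What limits these groups as models is the mother. The Ler nrpd1 mothers of both mutant groups kept 12 regions of Col-0 sequence, together 20617793 bp with 6867 genes, which WT mothers lacked. At these genes the mutant endosperm had Col-0 alleles from both parents and WT endosperm had a Ler and a Col-0 allele, so loss of NRPD1 and maternal allele cannot be told apart there. Nor can loss of NRPD1 be told apart, at genes elsewhere, from effects that this sequence in the mother may have on them. YUC10 and TAA1 both lie in 1 such region, on chromosome 1 from 17867102 to 30425192 (TAIR10), which holds 4071 genes. YUC10 starts 224.58 kb inside its edge. The other 8 auxin synthesis genes lie outside all 12 regions.

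Auxin is made from tryptophan in a pair of steps. TAA1 and its relatives TAR1 and TAR2 convert tryptophan to indolepyruvate, and the YUC enzymes convert indolepyruvate to indoleacetic acid, the main natural auxin. In Arabidopsis seeds auxin made in the endosperm after fertilization is known to drive proliferation of the endosperm and growth of the seed coat. YUC10 is known as an imprinted gene expressed mainly from the paternal allele.

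The values are FPKM (fragments per kilobase of transcript, scaled to the number of mapped fragments of a library), 1 pooled value per genotype and table, with no value per library. A replicate error or a test of a difference could therefore not be computed from these values, the authors' own test results were not used, and the number of fragments behind a value is unknown. Differences are given as log2(FPKM + 1) of the mutant minus that of WT, and a gene was counted as higher or lower when this reached 1 in size, that is, 2-fold on that scale, which understates differences of genes near or below 1 FPKM. Fold values are plain ratios of FPKM. Genes were counted only with at least 1 FPKM in either genotype. The table of each mutant was normalized on its own with its own WT column, so levels are compared within a table unless a common scale is stated.

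The sequences just upstream of YUC10 and TAA1 are shown because these 2 genes carried nearly all of the measured signal. Each run is the 250 bases before the annotated gene start, read from the RefSeq TAIR10.1 genome, 5′ to 3′ on the plus strand, which is the strand of both genes, and capitals mark the match to TATAAA.
YUC10, chr1:18091431-18091680: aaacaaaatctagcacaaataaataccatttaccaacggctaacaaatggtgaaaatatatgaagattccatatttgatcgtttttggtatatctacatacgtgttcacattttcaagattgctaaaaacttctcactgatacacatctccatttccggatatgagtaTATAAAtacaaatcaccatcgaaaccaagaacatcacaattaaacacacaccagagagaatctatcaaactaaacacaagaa
TAA1, chr1:26604605-26604854: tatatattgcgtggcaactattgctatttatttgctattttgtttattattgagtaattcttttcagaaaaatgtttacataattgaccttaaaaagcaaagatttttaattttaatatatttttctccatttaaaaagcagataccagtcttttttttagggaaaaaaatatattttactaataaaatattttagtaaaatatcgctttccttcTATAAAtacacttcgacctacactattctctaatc

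Each window held 1 match to TATAAA, the core of the TATA box, starting 82 bases before the YUC10 gene start and 35 bases before that of TAA1. Windows of the same length before 37042 annotated genes held such a match in 44.6% of cases. Both strands were searched, and no matches overlapped. Neither window held CATGCA (the RY element of seed regulators, present in 8.80% of windows), CACGTG (the G-box, 5.45%) or TGTCTC (the auxin response element, 10.9%). The GC content was 31.6% before YUC10 and 22.8% before TAA1. The annotation places the YUC10 coding start at the gene start and that of TAA1 39 bases after it. These are Col-0 sequences; the Ler alleles were not analysed here.

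Only TAA1 and YUC10 reached 1 FPKM in any of the 4 columns used. TAA1 (chromosome 1, 26604855 to 26607652, 5 exons) is the founding member of the aminotransferase family. Its level was 7.45 FPKM in WT and 11.7 FPKM in mat nrpd1+/- in their table, and 14.1 FPKM in WT and 38.1 FPKM in nrpd1-/- in theirs. It was thus higher in the mutant column of each table, by 1.57-fold in mat nrpd1+/- and by 2.70-fold in nrpd1-/-. On the log2(FPKM + 1) scale the differences were 0.59 and 1.37, so only that of nrpd1-/- reached 2-fold. TAA1 made up 91.3% of the summed FPKM of TAA1, TAR1 and TAR2 in the WT column of the mat nrpd1+/- table and 98.4% in mat nrpd1+/-. The shares were 96.5% in the WT column of the nrpd1-/- table and 99.1% in nrpd1-/-.

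YUC10 (chromosome 1, 18091681 to 18093878, 4 exons) had the largest difference of the 10 genes in both comparisons. Its level was 6.17 FPKM in WT against 66.2 FPKM in mat nrpd1+/-, and 12.9 FPKM in WT against 79.3 FPKM in nrpd1-/-. These are 10.7-fold and 6.15-fold higher levels, or 3.23 and 2.53 on the log2(FPKM + 1) scale. YUC10 held 94.2% of the summed FPKM of the 7 YUC genes in the WT column of the mat nrpd1+/- table and 98.2% in that of the nrpd1-/- table. In the mutant columns this share was 99.7% in both. Among all genes, its level stood at percentile 69.2 in WT and 93.8 in mat nrpd1+/-, and at 78.8 in WT and 95.4 in nrpd1-/-.

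The order of the 2 genes differed between WT and mutant columns. In WT, YUC10 was at 0.828 times the level of TAA1 in the mat nrpd1+/- table and at 0.914 times in the nrpd1-/- table, so that the gene of the first step was slightly above that of the second. In mat nrpd1+/- YUC10 was at 5.67 times TAA1, and in nrpd1-/- at 2.08 times. With 1 value per column, whether the pair differ in level within WT beyond the spread of libraries cannot be said.

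**Figure D1:**
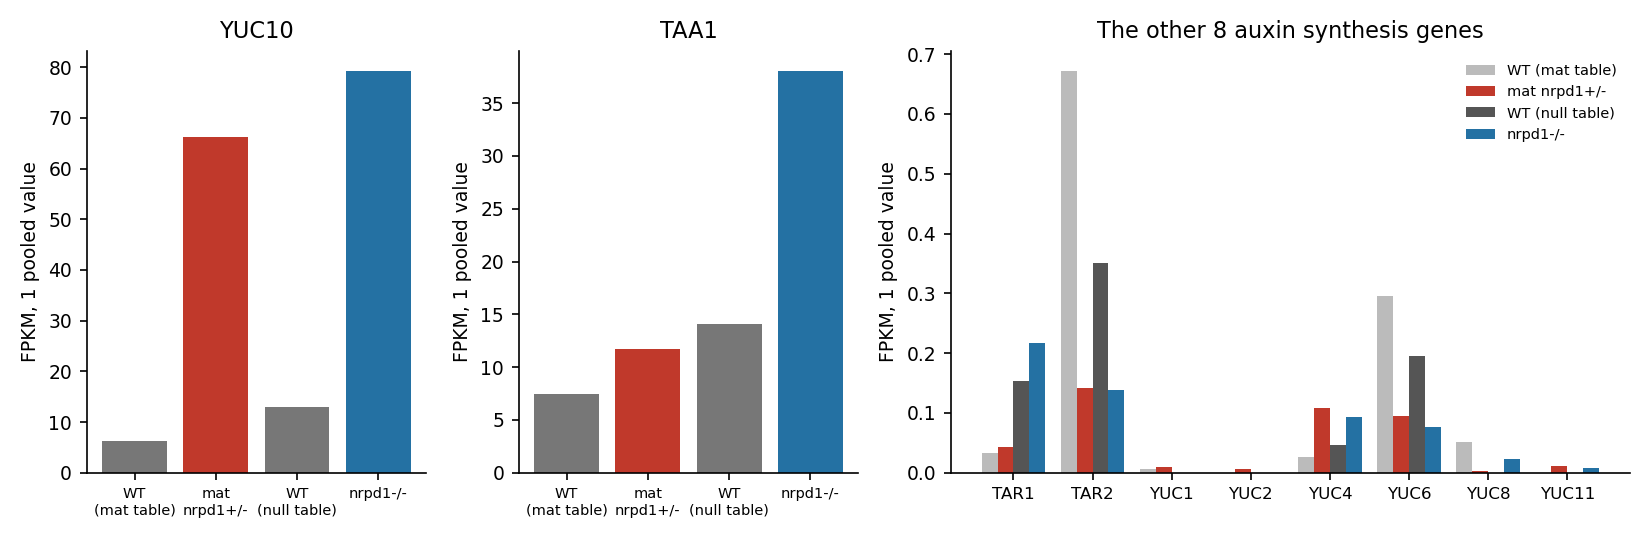
FPKM of the 10 auxin synthesis genes in the WT and mutant columns of the mat nrpd1+/- table and of the nrpd1-/- table ("null table"), 1 pooled value per bar and no error bar. YUC10 stands at 66.2 and 79.3 FPKM in the mutants against 6.17 and 12.9 FPKM in WT, TAA1 is highest in nrpd1-/- at 38.1 FPKM, and the other 8 genes stay below 0.7 FPKM in every column.

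Counted over the 2 genes that reached 1 FPKM, 1 was higher in mat nrpd1+/- (YUC10) and both were higher in nrpd1-/-. Of the genes inside the regions of Col-0 sequence, 12% were higher in mat nrpd1+/- (475 of 3969) and 11.1% in nrpd1-/- (425 of 3829). Outside these regions, 10.8% were higher and 14.3% lower in mat nrpd1+/- (1601 and 2119 of 14802), and 9.05% were higher and 7.56% lower in nrpd1-/- (1289 and 1076 of 14237). None of the members outside the regions reached the level at which genes were counted. Ranked by difference among the genes inside the regions, YUC10 was at position 37 of 3969 in mat nrpd1+/- and 93 of 3829 in nrpd1-/-. TAA1 was at position 871 and 271. The median difference outside the regions was -0.08 in mat nrpd1+/- and -0.01 in nrpd1-/-.

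The WT columns of the tables give the only view of how far values of a single genotype lay apart. The WT columns of the mat nrpd1+/- and the pat nrpd1+/- tables were the same up to a scale factor, with an SD of 0.0061 in their log2 ratio over 17243 genes. The WT column of the nrpd1-/- table differed from that of the mat nrpd1+/- table, with an SD of 1.19 in the log2 ratio over 16037 genes. Which WT libraries entered each column is not named in the sources used here. After scaling the nrpd1-/- table by the median WT ratio, 30.8% of 18592 genes differed at least 2-fold between the WT columns in either direction. YUC10 itself differed by 1.07 and TAA1 by 0.95 on the log2(FPKM + 1) scale, each higher in the WT column of the nrpd1-/- table.

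On that common scale YUC10 was at 6.17 and 14.0 FPKM in the WT columns, 66.2 FPKM in mat nrpd1+/- and 86.4 FPKM in nrpd1-/-. Both mutant values lay above both WT values. A difference between WT columns as large as that of YUC10 in mat nrpd1+/- was found for 2.90% of genes, and one as large as that in nrpd1-/- for 5.03%. With the WT columns exchanged, YUC10 was 4.71-fold higher in mat nrpd1+/- and 14.0-fold higher in nrpd1-/-.

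TAA1 was at 7.45 and 15.4 FPKM in the WT columns on the common scale, at 11.7 FPKM in mat nrpd1+/- and at 41.5 FPKM in nrpd1-/-. The mat nrpd1+/- value thus lay between the WT values, and its direction turned with the WT column exchanged, to -0.37 on the log2(FPKM + 1) scale. The nrpd1-/- value lay above both WT values, at 5.57-fold with the WT columns exchanged. Of all genes, 53.3% differed between WT columns by as much as TAA1 did in mat nrpd1+/-, and 18.0% by as much as it did in nrpd1-/-.

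**Figure D2:**
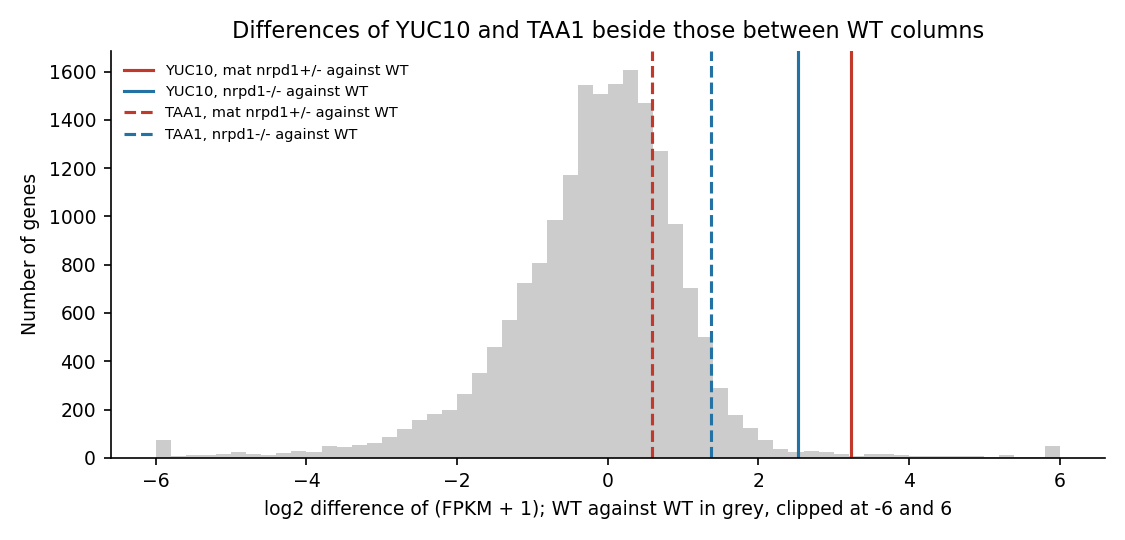
Distribution over 18592 genes of the log2(FPKM + 1) difference between the WT columns of the nrpd1-/- and mat nrpd1+/- tables after scaling (grey bars, number of genes, values beyond the axis drawn in the outermost bars), with the mutant differences of YUC10 (solid lines) and TAA1 (dashed lines). The YUC10 lines at 3.23 and 2.53 stand in the sparse right tail, and the TAA1 line of mat nrpd1+/- at 0.59 stands within the bulk.

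The other aminotransferase genes were near 0. TAR2 (chromosome 4, 12727531 to 12731331), which acts redundantly with TAA1 in many tissues, was at 0.672 FPKM in WT and 0.142 FPKM in mat nrpd1+/-. It was at 0.350 FPKM in WT and 0.139 FPKM in nrpd1-/-. Its mutant values were lower in both tables, at 21.1% and 39.5% of WT, and on the common scale both WT values (0.672 and 0.382) lay above both mutant values (0.142 and 0.151). With the pseudocount of 1 the differences were -0.55 and -0.25, and with a pseudocount of 0.1 they were -1.67 and -0.92. TAR1 (chromosome 1, 8273423 to 8275350) was at 0.0336 FPKM in WT and 0.0427 FPKM in mat nrpd1+/-, and at 0.154 FPKM in WT and 0.217 FPKM in nrpd1-/-. The TAR1 values differed more between the tables than between WT and mutant within either.

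Of the other 6 YUC genes, YUC6 (chromosome 5, 8934941 to 8938768) was the most abundant in both WT columns. It was at 0.296 FPKM in WT against 0.0944 FPKM in mat nrpd1+/-, and at 0.195 FPKM in WT against 0.0757 FPKM in nrpd1-/-, or 31.9% and 38.9% of WT. On the common scale its WT values, 0.296 and 0.212 FPKM, lay above its mutant values, 0.0944 and 0.0825 FPKM. YUC4 (chromosome 5, 3611247 to 3613640), known for its part in flower and embryo patterning, differed the other way. It was at 0.0262 FPKM in WT and 0.108 FPKM in mat nrpd1+/-, and at 0.0472 FPKM in WT and 0.0928 FPKM in nrpd1-/-. These levels are all far below 1 FPKM, and with no counts in the tables the counting error behind them is unknown.

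The remaining 4 YUC genes were each listed at 0 in at least 1 column and below 0.1 FPKM in the others. YUC1 (chromosome 4, 15700829 to 15703000), which acts with YUC4 in flowers, had 0.0067 FPKM in WT and 0.00926 FPKM in mat nrpd1+/- and was listed at 0 in both columns of the nrpd1-/- table. YUC2 (chromosome 4, 7721487 to 7724070) was listed at 0 everywhere but in mat nrpd1+/-, at 0.00569 FPKM. YUC8 (chromosome 4, 14192569 to 14194302), known for its part in warmth-induced growth, was at 0.0513 FPKM in WT and 0.00294 FPKM in mat nrpd1+/-, and listed at 0 in WT against 0.0235 FPKM in nrpd1-/-. Its direction thus differed between the tables.

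YUC11, known with YUC10 from the Arabidopsis endosperm, was listed at 0 in both WT columns, at 0.0119 FPKM in mat nrpd1+/- and at 0.00738 FPKM in nrpd1-/-. Its locus in the tables runs from 7500845 to 7504275 on chromosome 1 and covers 2 annotated genes, while RefSeq ends YUC11 at 7502186, so its value is uncertain. The 8 genes other than TAA1 and YUC10 summed to 1.09 FPKM in WT and 0.417 FPKM in mat nrpd1+/-, and to 0.746 FPKM in WT and 0.555 FPKM in nrpd1-/-. The sum over all 10 rested on the remaining pair and was 14.7 FPKM against 78.3 FPKM in mat nrpd1+/- and 27.7 FPKM against 117.9 FPKM in nrpd1-/-.

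The genes next to YUC10 and TAA1 share their region of Col-0 sequence. Within 50 kb of YUC10, 19 other genes reached 1 FPKM in the mat nrpd1+/- table, of which 3 were higher and 5 lower, with a median difference of 0.03. In the nrpd1-/- table the counts were 2 higher and 1 lower of 16, with a median of -0.07. Of all genes inside the regions, 12% were higher in mat nrpd1+/- and 11.1% in nrpd1-/-. The share of lower genes was 14.3% in mat nrpd1+/- and 7.56% in nrpd1-/- outside the regions, and was not counted inside them. Counts of neighbours of YUC10 and TAA1 were not repeated with the WT columns exchanged. The oleosin family gene AT1G48990, whose start lies 29.8 kb from that of YUC10, had differences of 3.69 and 3.02. The gene AT1G49032, of an uncharacterized protein 46.3 kb away, had differences of 2.45 and 2.75. GH9C1, a glycosyl hydrolase gene 9.96 kb away, differed in the other direction, by -1.18 and -1.80. These 3 neighbours were picked after their values were seen. YUC10 was thus not the only gene of its surroundings with a large difference, and most of the neighbours were within 2-fold.

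Within 50 kb of TAA1, 4 of 18 other genes were higher and 2 lower in mat nrpd1+/-, with a median of 0.48. In nrpd1-/- 2 of 18 were higher and 0 lower, with a median of 0.35. Of all genes inside the regions, 12% were higher in mat nrpd1+/- and 11.1% in nrpd1-/-. Outside them, 14.3% and 7.56% were lower. The difference of TAA1 in mat nrpd1+/-, 0.59, was close to the local median of 0.48. Its difference in nrpd1-/-, 1.37, was above the local median of 0.35.

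**Figure D3:**
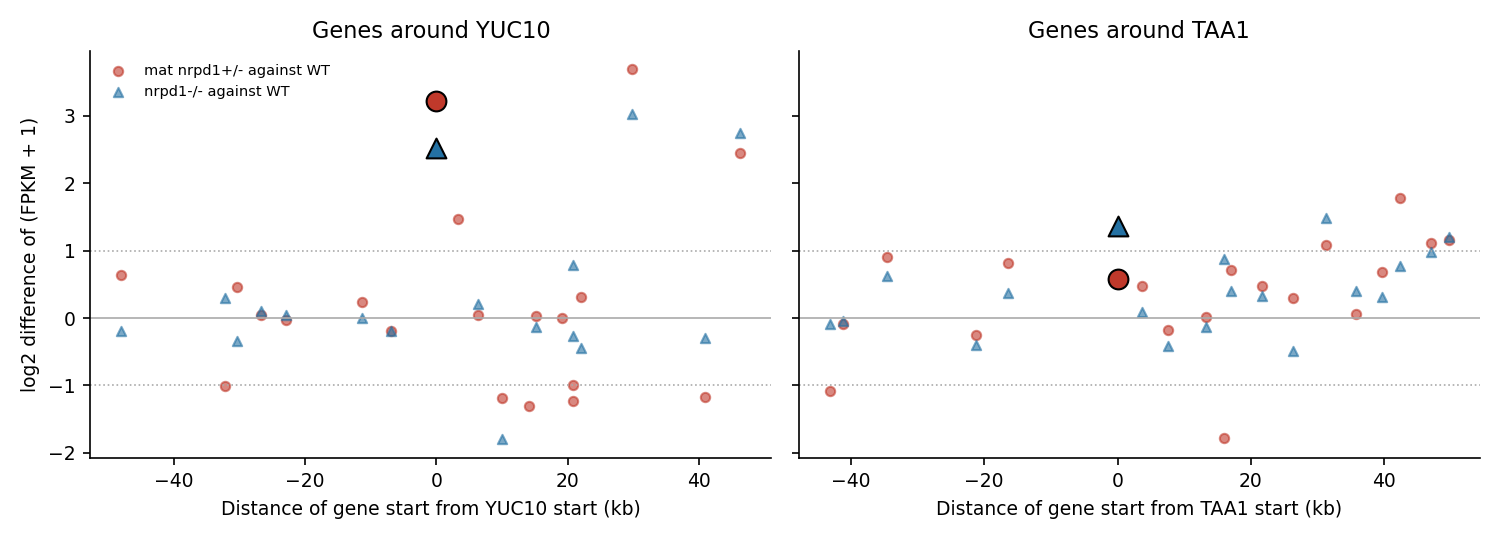
log2(FPKM + 1) differences of genes with at least 1 FPKM in either genotype against the distance of their start from that of YUC10 (left) or TAA1 (right) in kb, with circles for mat nrpd1+/- and triangles for nrpd1-/- against WT, the central gene drawn larger and dotted lines at 2-fold. AT1G48990 and AT1G49032, 29.8 and 46.3 kb from YUC10, stand with it above 2, while most other genes lie between -1 and 1.

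The rest of the auxin pathway was described from 10 lists with 122 genes, taken by function. In mat nrpd1+/- 67 of them reached 1 FPKM, of which 9 were higher and 6 lower, with a median difference of 0.17. In nrpd1-/- 69 reached it, of which 7 were higher and 5 lower, with a median of 0.10. Outside the regions of Col-0 sequence, 12.5% of list genes were higher and 10.7% lower in mat nrpd1+/-, beside 10.8% and 14.3% of all genes. In nrpd1-/- 10.5% were higher and 8.77% lower, beside 9.05% and 7.56%. The shares were near those of all genes, which also stand beside the counts of the single lists below. The list counts also rest on the WT column used: with the WT columns exchanged 2 list genes were higher in mat nrpd1+/- and 17 in nrpd1-/-. The shares of all genes with the columns exchanged were not counted.

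Upstream of TAA1, the 11 tryptophan synthesis genes included 1 higher and 1 lower of 10 in mat nrpd1+/-, and 1 higher and 0 lower of 11 in nrpd1-/-. TSB2, a tryptophan synthase beta subunit, was at 9.88 FPKM in WT and 25.5 FPKM in mat nrpd1+/-, and at 15.4 FPKM in WT and 35.1 FPKM in nrpd1-/-. TSA1, the alpha subunit, was at 17.6 FPKM in WT and 8.27 FPKM in mat nrpd1+/-, just past 2-fold, and differed by -0.47 in nrpd1-/-. With the WT columns exchanged both were within 2-fold in mat nrpd1+/-, TSB2 at 0.57 and TSA1 at -0.91.

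Among 6 further genes of the aminotransferase and YUC families, 2 reached 1 FPKM. Both are annotated as transferases of the pyridoxal phosphate type. AT1G34060 was at 10.8 FPKM in WT and 28.4 FPKM in mat nrpd1+/-, with a difference of 1.32 there and 0.26 in nrpd1-/-. AT1G34040 was at 11.9 FPKM in WT and 4.50 FPKM in nrpd1-/-, with a difference of -1.23 there and -0.78 in mat nrpd1+/-. The 2 genes thus differed in opposite directions, each past 2-fold in 1 comparison. With the WT columns exchanged, the differences of AT1G34060 were -0.14 and 1.71, and both of AT1G34040 were lower past 2-fold.

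Of the 8 genes of other routes to auxin, 4 reached 1 FPKM, and NIT2 was the only one past 2-fold. NIT2, a nitrilase that can release auxin from indoleacetonitrile, was at 595 FPKM in WT and 122 FPKM in mat nrpd1+/-, and at 257 FPKM in WT and 88.9 FPKM in nrpd1-/-. It was lower by 2-fold or more with either WT column, by -1.18 in mat nrpd1+/- and -2.61 in nrpd1-/- with the columns exchanged.

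The list of seed regulators held LEC1, LEC2, FUS3 and AGL62, and their action on the auxin synthesis genes was not tested. LEC1, a subunit of a CCAAT-binding factor, was at 509 FPKM in WT against 95.2 FPKM in mat nrpd1+/-, and at 207 FPKM in WT against 79.8 FPKM in nrpd1-/-. LEC2, a B3-domain factor known to activate YUC genes, was at 23.0 FPKM in WT against 8.87 FPKM in mat nrpd1+/-, and at 21.6 FPKM in WT against 6.67 FPKM in nrpd1-/-. Both were lower past 2-fold in each table and with the WT columns exchanged. FUS3, another B3-domain factor, had differences of 0.90 and 0.47, and AGL62, a MADS-domain factor of early endosperm, stayed below 1 FPKM in every column. LEC1 and LEC2 were lower in the columns in which YUC10 was higher. They lie outside the regions of Col-0 sequence, which the mothers of both mutant groups carried.

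Genes that remove or release auxin had 2 large differences. GH3.9, of a family of enzymes that join amino acids to auxin, was at 2.83 FPKM in WT and 30.4 FPKM in mat nrpd1+/-, a difference of 3.04, and differed by 0.76 in nrpd1-/-. It lies in a region of Col-0 sequence, and with the WT columns exchanged its differences were 0.24 and 3.53, so its value turned on the WT column. ILL6, of the family that releases auxin from such conjugates, was at 1.96 FPKM in WT and 9.59 FPKM in mat nrpd1+/-, and at 1.36 FPKM in WT and 13.8 FPKM in nrpd1-/-. Its difference stayed above 2-fold with the WT columns exchanged, at 2.09 and 2.40. IAMT1, which methylates auxin, had differences of -1.03 and -0.70, and of -0.17 and -1.55 with the WT columns exchanged.

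Among the transport genes 4 of 16 reached 1 FPKM, and none was past 2-fold in mat nrpd1+/-. In nrpd1-/- ABCB19, an auxin exporter, was at 34.6 FPKM in WT and at 12.5 FPKM without NRPD1, a difference of -1.40. With the WT columns exchanged this call moved to mat nrpd1+/-, with -1.73 there and -0.50 in nrpd1-/-. Of the 6 receptor genes of the TIR1 family 5 reached 1 FPKM, and 0 were higher or lower in either comparison. TIR1 itself differed by 0.92 and -0.34, and by -1.12 and 1.68 with the WT columns exchanged.

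The Aux/IAA genes encode repressors of the auxin response, many of them induced by auxin. Of 29 listed, 14 reached 1 FPKM in the mat nrpd1+/- table, with 2 higher and 1 lower, and 15 in the nrpd1-/- table, with 2 higher and 0 lower. IAA18, which lies in the same region of Col-0 sequence as YUC10, was at 1.05 FPKM in WT against 6.02 FPKM in mat nrpd1+/-, and at 1.86 FPKM in WT against 4.78 FPKM in nrpd1-/-. IAA19 had differences of 1.27 and 0.73, and IAA27 of -1.62 and -0.03. IAA34 was at 0.0752 FPKM in WT and 1.82 FPKM in nrpd1-/-, and did not reach 1 FPKM in the mat nrpd1+/- table. With the WT columns exchanged the difference of IAA27 was 0.05 in mat nrpd1+/- and -1.68 in nrpd1-/-, and that of IAA19 was 0.95 and 1.03.

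The auxin response factors bind the promoters of auxin-regulated genes. Of 22, 14 reached 1 FPKM in each table, with 3 higher and 0 lower in both comparisons, namely ARF3, ARF10 and ARF16. These are 21.4% in each, beside 10.8% of all genes outside the regions in mat nrpd1+/- and 9.05% in nrpd1-/-. ARF3 was at 10.5 FPKM in WT and 27.7 FPKM in mat nrpd1+/-, and at 12.4 FPKM in WT and 33.8 FPKM in nrpd1-/-. ARF10 was at 1.23 FPKM in WT and 6.59 FPKM in mat nrpd1+/-, and at 2.77 FPKM in WT and 7.34 FPKM in nrpd1-/-. ARF16 was at 2.83 FPKM in WT and 9.43 FPKM in mat nrpd1+/-, and at 6.20 FPKM in WT and 16.3 FPKM in nrpd1-/-. The other 11 were within 2-fold in both comparisons, and small RNAs were not analysed here. With the WT columns exchanged none of ARF3, ARF10 and ARF16 reached 2-fold in mat nrpd1+/-. Their differences there were 0.98, 0.92 and 0.43. Whether the comparisons share WT libraries is not known, so that their likeness was given no test.

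**Figure D4:**
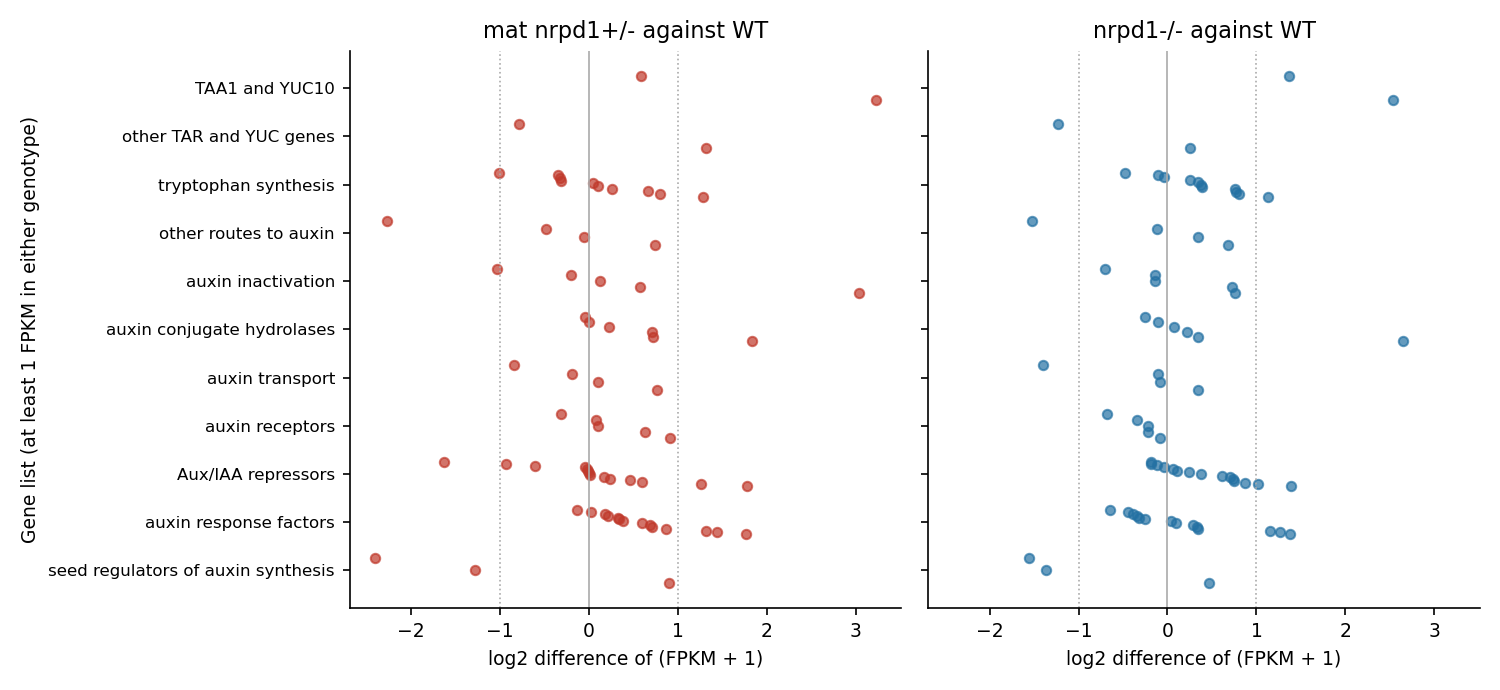
log2(FPKM + 1) differences of TAA1 and YUC10 and of the genes of the 10 auxin pathway lists in mat nrpd1+/- (left) and nrpd1-/- (right) against WT, 1 point per gene with at least 1 FPKM in either genotype and dotted lines at 2-fold. YUC10, at 3.23 and 2.53, is at the far right with GH3.9 at 3.04 in mat nrpd1+/- and ILL6 at 2.64 in nrpd1-/-, and most points lie between -1 and 1.

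NRPD1, the gene carrying the T-DNA, was at 2.28 FPKM in WT and 2.08 FPKM in mat nrpd1+/-, and at 4.34 FPKM in WT and 2.08 FPKM in nrpd1-/-. Reads from the mutant locus were thus not lost in nrpd1-/-, and which part of the gene they covered was not analysed here. The NRPD1 differences were -0.09 in mat nrpd1+/- and -0.79 in nrpd1-/-, and -0.89 and -0.004 with the WT columns exchanged. NRPD1 lies in the same region of Col-0 sequence as YUC10. Of 10 endosperm markers, 4 reached 1 FPKM in the WT column of the mat nrpd1+/- table and 3 in that of the nrpd1-/- table. Each mutant column had 2. The list summed to 203 to 298 FPKM, nearly all of it from ZOU and SUC5. MEA, FWA, PHE2 and AGL62 stayed below 1 FPKM in every column, and the early markers IKU2 and MINI3 were at or near 0. The 12 embryo markers summed to 71.4 FPKM in WT against 39.2 FPKM in mat nrpd1+/-, and to 39.6 against 38.7 FPKM for nrpd1-/-, with CLV3 at 0 throughout. Of the 5 embryo markers reaching 1 FPKM in mat nrpd1+/- 3 were lower, and of 4 in nrpd1-/- 1 was higher and 1 lower. Of the endosperm markers 1 of 4 was lower in mat nrpd1+/- and 1 of 3 in nrpd1-/-, and 0 were higher. The 12 seed coat markers summed to 180 FPKM in WT against 218 FPKM in mat nrpd1+/-, and to 260 against 214 FPKM in nrpd1-/-, mostly from TT10 and MUM4. The authors reported that a tissue enrichment test of their mRNA data gave no sign of seed coat contamination. Of 10 seed coat markers reaching 1 FPKM, 1 was higher in mat nrpd1+/- (TTG2) and 2 in nrpd1-/- (TTG2 and BAN), both in regions of Col-0 sequence. Beside these marker counts, 10.8% of all genes outside the regions were higher and 14.3% lower in mat nrpd1+/-. In nrpd1-/- these shares were 9.05% and 7.56%. Each marker count rests on few genes. Against the WT column of the other table, 1 embryo marker was higher and 1 lower of 3 in mat nrpd1+/- (AT5G62210 turned from -1.12 to 1.88), and 1 was higher and 3 lower of 6 in nrpd1-/-. The endosperm markers then had 1 lower of 3 and 1 lower of 4. The seed coat markers had 2 higher and 1 lower of 10 in mat nrpd1+/- and 2 higher of 9 in nrpd1-/-, where BAN moved from 1.69 to 0.26. The shares of all genes against the WT column of the other table were not counted. The part of these cell types in the levels of YUC10, TAA1, LEC1 and LEC2 was not tested, and in pooled tissue fewer cells of a type and less RNA per cell cannot be told apart.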

How the data were processed

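Endosperm mRNA-seq of WT (2 labelled libraries), mat nrpd1+/- (3) and nrpd1-/- (3) was analysed from the tables the authors deposited. The authors trimmed the reads with Trim Galore, aligned them to TAIR10 with TopHat and made FPKM values with Cuffdiff (version 2.2.1 in the submitters' processing notes), 1 pooled value per genotype in each of 3 tables, each scaled separately. The deposited tables also hold a log2 fold change, test statistic, p-value, q-value and significance call from the authors' own comparisons, and none of these was used. 1 value column, that of pat nrpd1+/-, was not used because no labelled sample matched it. The authors' deposited intervals of Col-0 sequence left in the Ler nrpd1 mothers were taken as they are.

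Differences of log2(FPKM + 1) were computed with Python 3.11.15, numpy 2.4.6 and pandas 2.3.3, over genes with at least 1 FPKM in either genotype, and 2-fold was the threshold. The code was run on WT values multiplied by known factors without noise, which checks the arithmetic of the calls and not their error. Depth per library is not given by the tables, and with 1 value per genotype no test was made here. RefSeq TAIR10.1 gave symbols and sequences. Of 37044 matched nuclear genes, 99.99% lie within the locus given by the tables. For 6 listed genes with no matching symbol there, only the identifier is used. All 10 members were named, with, in each list and comparison, up to 2 genes with the largest differences past 2-fold in each direction, and list genes past 2-fold in both comparisons. FUS3, AGL62, TIR1 and the neighbours of YUC10 and TAA1 were named after their values were seen. The members and lists were chosen with earlier results of these data known. Alternatives changed the pseudocount, the filter, the centring, the introgressed genes and the WT column.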

Additional observations from a re-analysis of the deposited data

How the results depend on the processing

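Leaving out the genes in regions of Col-0 sequence left 0 auxin synthesis genes to count as higher in mat nrpd1+/- and 0 in nrpd1-/-, since YUC10 and TAA1 both lie there. Centring on the median of all genes moved no count of members. Dropping the filter on low values could not move one. With the pseudocount of 1, a gene below 1 FPKM in both genotypes cannot reach 2-fold. With a pseudocount of 0.1 the auxin pathway genes higher in nrpd1-/- were 11 in place of 7. The following alternatives were chosen after seeing the data. With a pseudocount of 0.1 and a floor of 0.1 FPKM, 2 members were lower in mat nrpd1+/- (TAR2 and YUC6), the pathway genes higher were 20 in mat nrpd1+/- and 19 in nrpd1-/-, and those lower in mat nrpd1+/- were 11. With the WT column of the other table, scaled, the pathway genes higher were 2 in mat nrpd1+/- and 17 in nrpd1-/-. The shares of all genes were not counted under the changed pseudocount, floor or WT column. Among values of single members 66 stayed and 14 moved, a move being a shift of more than 1.5-fold (0.58 in log2). Members near 0 FPKM are held near 0 by the pseudocount of 1, so this tally is no measure of stability. The WT exchange moved TAA1 and YUC10 in both comparisons. TAA1 went from 0.59 to -0.37 in mat nrpd1+/- and from 1.37 to 2.32 in nrpd1-/-. YUC10 went from 3.23 to 2.16 in mat nrpd1+/- and from 2.53 to 3.59 in nrpd1-/-. The cause was not tested. Leaving out replicates could not be run on pooled columns. No paired analysis was possible because the pooled columns carry no replicate numbers. The depth behind each FPKM is unknown, which limits every level below 1 FPKM most.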
